A study of Homo sapiens with 6 samples.

Results

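The retinoblastoma and E2F families were followed through hypoxia in a meningioma cell line, as 10 genes chosen by name: the pocket protein genes RB1, RBL1 and RBL2 and the E2F genes E2F1, E2F2, E2F3, E2F4, E2F5, E2F7 and E2F8. Each name matched 1 row of the deposited count table, so that 10 of 61859 genes were members, and all 10 were among the 16411 genes with enough counts to test. The RNA came from IOMM-Lee cells, an established human line whose parent tumour was a grade 3, malignant meningioma, which arises from the membranes that cover the brain. The hypoxia group was 3 biological replicates held for 48 h in a workstation at 0.2% oxygen, and the normoxia group was 3 biological replicates at the same time point. Both groups grew in DMEM with 10% serum, penicillin and streptomycin at the same temperature and carbon dioxide level, and all libraries are from a single cell line. The question followed here is what 48 h of low oxygen did to the transcripts of the machinery that gates entry into S phase.

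Pocket proteins bind E2F transcription factors and hold their target genes in check. Cyclin-dependent kinases phosphorylate the pocket proteins as a cell commits to division, which frees E2F to switch on the genes of DNA replication. E2F1, E2F2 and E2F3 are the activators of this switch and bind RB1. E2F4 and E2F5 work mainly with RBL1 (p107) and RBL2 (p130) as repressors in resting cells, where RBL2 and E2F4 sit in the DREAM complex. E2F7 and E2F8 are atypical repressors that bind DNA without a DP partner and without pocket proteins.

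The libraries held between 10619864 and 18447885 counts in hypoxia and between 14685317 and 19554178 in normoxia. Levels are CPM, the counts scaled to a common library size with TMM factors, where 3 counts in a library correspond to between 0.133 and 0.316 CPM, a limit that covers counting error only. Hypoxia replicate 3 stood apart from the other hypoxia libraries, at 47.7 on the second principal component of log2 CPM (7.83% of the variance) against -27.2 and -20.1 for hypoxia replicates 1 and 2. The share of counts from mitochondrial genes was between 2.05% and 3.05% in hypoxia and between 6.42% and 7.29% in normoxia, and its part in the results was not tested. All 8 genes of a list of well-known oxygen-responsive genes rose, against 31.2% of all tested genes. Of 10 meningioma and arachnoid markers, vimentin (VIM), DSP, CRABP2 and MUC1 were well above the limit and rose, and 4 were at or under 3 counts in every library. SSTR2 had 2, 5 and 3 counts in hypoxia and 26, 12 and 11 in normoxia. It passed the filter on low counts through normoxia alone, so its fall of 1.56 on the log2 scale was fixed by that filter. The 10 markers summed to 6107 to 7686 CPM in hypoxia and 2701 to 3561 CPM in normoxia. Most of this sum was VIM, at 5561 to 7222 CPM in hypoxia and 2601 to 3456 CPM in normoxia. Summed endothelial markers were at 4.85 to 7.71 CPM in hypoxia and 15.7 to 19.2 CPM in normoxia, and leukocyte markers at 0.783 to 1.16 CPM in hypoxia and 0.306 to 0.710 CPM in normoxia. Epithelial markers were at 144 to 169 CPM in hypoxia and 133 to 180 CPM in normoxia, and neural and glial markers at 12.8 to 15.5 CPM in hypoxia and 28.2 to 33.1 CPM in normoxia. Most of the epithelial sum was KRT18 and KRT8, with means of 111 and 43.5 CPM in hypoxia and 105 and 40.8 CPM in normoxia. CLDN4 had means of 1.86 CPM in hypoxia and 5.52 CPM in normoxia. EPCAM had at most 5 counts and CDH1 at most 2 in any library. The part of these other cell type markers in the results was not tested. In bulk RNA, fewer cells of a type and less RNA per cell cannot be told apart.

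The members moved in both directions in hypoxia, as the tested genes did as a whole. RBL1 and the activators E2F1, E2F2 and E2F3 fell, together with E2F4, while E2F5 and the repressor E2F7 rose, and RB1, RBL2 and E2F8 did not pass the test. So 5 of 10 members fell and 2 rose at a Benjamini-Hochberg adjusted p under 0.05 in edgeR's quasi-likelihood test, where 31.0% of all tested genes fell, 31.2% rose and 62.2% changed in either direction. The share of members called in either direction was near that of all tested genes. For 7 of the 10 members the groups had separate ranges, against 67.9% of all tested genes, so that this share was near the background. E2F1 and RBL1 fell at least 2-fold, as 17.7% of all tested genes did. E2F2 did so too, but it passed the filter on low counts through normoxia alone, so its fall, 1 of the 5, was fixed by that filter. Scaling by library totals alone moved the median log2 change of all genes by -0.31. Under it 42.1% of all tested genes fell and 20.8% rose, and of the members the 5 falls held, E2F8 joined them, and neither rise was called.

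**Figure D1:**
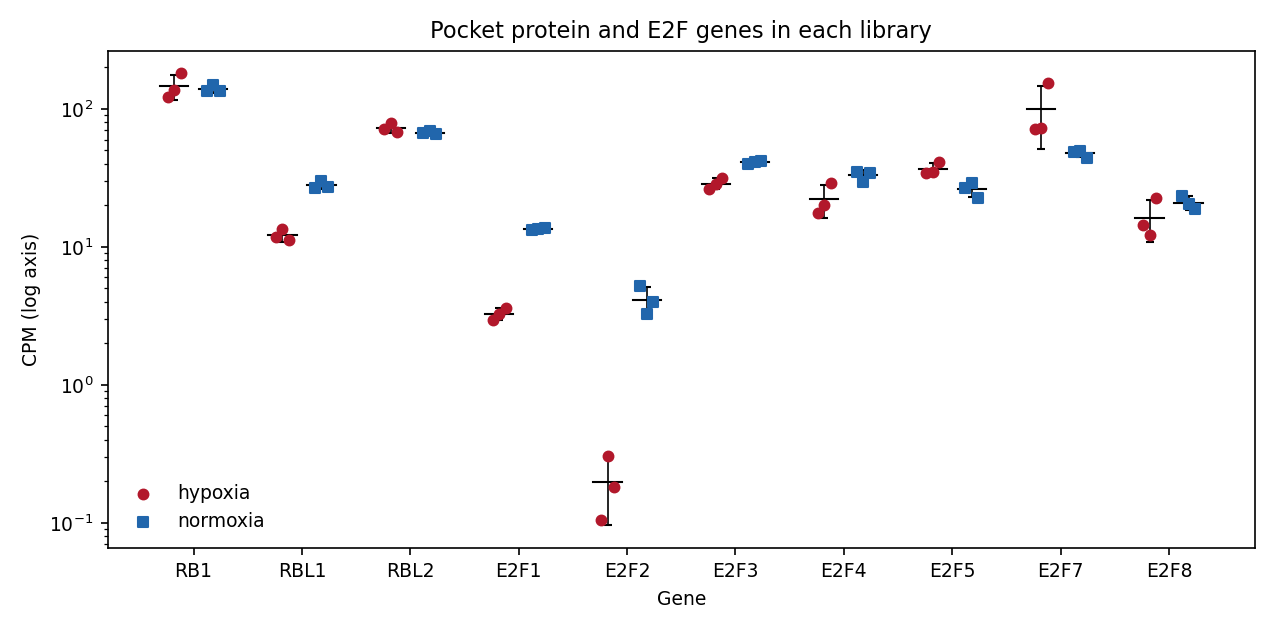
CPM on a log axis for each of the 10 genes in the 3 hypoxia libraries (red circles) and the 3 normoxia libraries (blue squares), with the mean as a line and the SD as error bars. E2F2 sits between 0.105 and 0.306 CPM in hypoxia against 3.25 to 5.24 CPM in normoxia, and the RB1, RBL2 and E2F8 groups overlap.

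RB1 (ENSG00000139687, GRCh38 chromosome 13, 48303726 to 48599436, plus strand) encodes the retinoblastoma protein itself. It had 123, 137 and 181 CPM in the hypoxia libraries, against 135, 149 and 134 CPM in the normoxia libraries. Hypoxia replicate 1 lay below the normoxia range, replicate 2 within it and replicate 3 above it. The log2 change was 0.08 ± 0.14 (SE; edgeR adjusted p = 0.647). Its sign turned without hypoxia replicate 3, at -0.13, and with library totals alone, at -0.23, and neither passed the threshold.

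RBL1 (ENSG00000080839, chromosome 20, 36996349 to 37095995, minus strand) encodes p107, a pocket protein whose own amount is known to peak in cycling cells. It had 11.7, 13.6 and 11.1 CPM in hypoxia, against 26.9, 30.02 and 27.0 CPM in normoxia. Every hypoxia library was below every normoxia library. The fall was 2.31-fold (-1.21 ± 0.14 on the log2 scale, SE, with an edgeR adjusted p of 2.29e-05). RBL1 shares 211 exon bases with ENSG00000269846 on the other strand, which had at most 2 counts in any library.

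RBL2 (ENSG00000103479, chromosome 16, 53433977 to 53491649, plus strand) encodes p130, the pocket protein of resting cells. It had 71.8, 78.8 and 67.7 CPM in hypoxia and 66.4, 68.9 and 65.6 CPM in normoxia. The groups overlapped, with a log2 change of 0.12 ± 0.10 (SE) at an edgeR adjusted p of 0.311 that became -0.19 with library totals alone. RBL2 shares 721 exon bases with ENSG00000279344 and 610 with AKTIP, both on the other strand. With no strand setting given in the sources used here, such reads cannot be told apart. ENSG00000279344 had at most 16 counts in any library. AKTIP was at 37.6 to 39.4 CPM in hypoxia and 21.1 to 28.7 CPM in normoxia, and its part in the RBL2 values was not tested.

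RBL1 took a smaller part of the pocket protein transcripts in every hypoxia library. Per kilobase of exon, RBL1 made up 6.38%, 6.66% and 4.78% of the summed level of the 3 genes in hypoxia, against 13.1%, 13.4% and 13.2% in normoxia. The log2 ratio of RBL1 to RBL2 was -2.29 ± 0.042 in hypoxia and -0.96 ± 0.055 in normoxia (SD, n = 3 each), a difference of -1.33. Such ratios within a library do not depend on how libraries are scaled. This difference had an exact two-sided permutation p of 0.1, the smallest that 3 against 3 libraries allow, and 0.116 after adjustment over 22 ratios and shares. The RB1 to RBL2 ratio had a difference of -0.06, with overlapping groups (exact permutation p = 1).

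E2F1 (ENSG00000101412, chromosome 20, 33675683 to 33686404, minus strand) is the founding activator of the family. It had 2.95, 3.26 and 3.61 CPM in hypoxia, against 13.3, 13.5 and 13.8 CPM in normoxia. The libraries were tight within each group and far apart between them. The fall was 4.09-fold, or -2.03 ± 0.18 on the log2 scale (SE), with an edgeR adjusted p of 3.64e-06.

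E2F2 (ENSG00000007968, chromosome 1, 23506430 to 23531220, minus strand) encodes the activator closest to E2F1 in role. It had 1, 3 and 3 raw counts in hypoxia, against 118, 53 and 68 in normoxia. No hypoxia library rose above the limit of 3 counts, so E2F2 had to differ once it was tested. The fitted fall was 20.5-fold, with a log2 change of -4.36 ± 0.44 (SE) at an edgeR adjusted p of 1.04e-05. The ratio of the summed counts, 7 in hypoxia and 239 in normoxia, was 21.9-fold lower in hypoxia, with an exact 95% interval of 10.5 to 55.1 that covers counting error only.

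E2F3 (ENSG00000112242, chromosome 6, 20401906 to 20493715, plus strand) encodes the third activator. It had 26.4, 28.4 and 31.5 CPM in hypoxia, against 39.9, 41.5 and 42.2 CPM in normoxia. The groups did not overlap, and the fall of 1.43-fold was the smallest of the activators in size (log2 change -0.51 ± 0.11, SE; edgeR adjusted p = 0.0022). The log2 ratio of E2F1 to E2F3 was -2.09 ± 0.020 in hypoxia and -0.56 ± 0.018 in normoxia (SD, n = 3 each; exact permutation p = 0.1, the smallest possible). Leaving out any 1 library kept this difference between -1.54 and -1.52.

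E2F factors are known to bind the promoters of several of their own family members. The bases nearest the start of E2F1, E2F2, E2F3 and RBL1 are shown because these 4 fell and their windows hold such letters. E2F7, which rose, is shown beside them. RefSeq promoter windows (GRCh38.p14) were on hand for 8 of the 10 members. The 250 bases before each start were searched on both strands for TTTCCCGC, TTTGGCGC, TTTGCCGC and TTTCGCGC, and capitals mark a match. The first 4 sequences each hold 1 or 2 matches and the last holds none. This contrast follows from the choice of sequences, since E2F4, which fell and holds no match, is not shown.
E2F1, chr20:33686386-33686485, minus strand: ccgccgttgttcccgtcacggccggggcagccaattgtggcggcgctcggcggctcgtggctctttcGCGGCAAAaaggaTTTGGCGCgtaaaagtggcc
E2F2, chr1:23531234-23531333, minus strand: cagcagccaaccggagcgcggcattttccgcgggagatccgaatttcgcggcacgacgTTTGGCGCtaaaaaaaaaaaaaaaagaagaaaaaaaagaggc
E2F3, chr6:20401779-20401878, plus strand: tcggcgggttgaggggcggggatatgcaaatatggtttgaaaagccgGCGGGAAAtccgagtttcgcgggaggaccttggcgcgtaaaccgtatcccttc
RBL1, chr20:37095998-37096097, minus strand: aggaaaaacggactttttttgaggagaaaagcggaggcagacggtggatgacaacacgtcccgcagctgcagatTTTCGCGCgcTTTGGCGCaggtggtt
E2F7, chr12:77065570-77065669, minus strand: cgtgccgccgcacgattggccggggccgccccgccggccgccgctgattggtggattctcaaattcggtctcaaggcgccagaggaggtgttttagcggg

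A match stood in 4 of the 8 members with a window, against 3.4% of 27305 genes and 2.79% of 35116 windows of the same length. In E2F1 the matches began 33 and 20 bases before the start, in RBL1 26 and 16 bases before it, in E2F2 42 and in E2F3 53. The windows of E2F4, which fell, and of RB1, RBL2 and E2F7 held no match. The RB1 window, both RBL2 windows and another E2F3 window, which held no match, lie wholly inside the annotated gene rather than before its first start. The hypoxia response letters ACGTG and GCGTG, searched on both strands, stood in 4 of the 10 windows of members and in 43.2% of all windows, so that this share was near the background. These are descriptions of letters and show no binding.

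E2F4 (ENSG00000205250, chromosome 16, 67192169 to 67198918, plus strand) is the main E2F of the DREAM complex. It had 17.7, 19.98 and 28.8 CPM in hypoxia, against 35.01, 29.4 and 34.6 CPM in normoxia. The groups did not overlap, but hypoxia replicate 3 came close to normoxia replicate 2. The fall was 1.47-fold (log2 change -0.56 ± 0.18, SE; edgeR adjusted p = 0.0171). Its call was lost without normoxia replicate 1 (edgeR adjusted p = 0.0542), hypoxia replicate 1 (0.0617) or hypoxia replicate 2 (0.0689), and the log2 change was -0.84 without hypoxia replicate 3.

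E2F5 (ENSG00000133740, chromosome 8, plus strand) encodes the other pocket-bound repressor. It had 34.3, 34.7 and 40.9 CPM in hypoxia, against 26.7, 28.9 and 22.7 CPM in normoxia. Every hypoxia library was above every normoxia library, a rise of 1.41-fold (log2 change 0.49 ± 0.13, SE; edgeR adjusted p = 0.00734). Under scaling by library totals it was at 0.18 and no longer called (edgeR adjusted p = 0.294). E2F5 shares 969 exon bases with RBIS, a ribosome biogenesis gene on the other strand, which had 46.8, 39.0 and 20.4 CPM in hypoxia and 15.2, 15.9 and 19.2 CPM in normoxia. RBIS rose between the groups, as E2F5 did (log2 change 1.07, edgeR adjusted p = 0.0098), and was lowest in the hypoxia library where E2F5 was highest. E2F5 also shares 133 exon bases with ENSG00000254208 on the other strand, which had at most 23 counts in any library. The part of RBIS and of ENSG00000254208 in the E2F5 values was not tested.

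E2F4 was lower relative to E2F5 in every hypoxia library than in any normoxia library. The log2 ratio of their levels per kilobase was -0.23, -0.07 and 0.22 in hypoxia, against 1.12, 0.75 and 1.33 in normoxia. The groups did not overlap (difference -1.09; exact permutation p = 0.1, the smallest possible, and 0.116 after adjustment). E2F4 was thus the higher of the pair in all 3 normoxia libraries and in 1 of 3 hypoxia libraries.

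E2F7 (ENSG00000165891, chromosome 12, 77021247 to 77065580, minus strand) encodes an atypical repressor of E2F target genes, E2F1 among them. It had 71.4, 72.3 and 155 CPM in hypoxia, against 49.1, 49.2 and 44.4 CPM in normoxia. All hypoxia libraries were above all normoxia libraries, and replicate 3 was 2.15 times the mean of the other hypoxia libraries. Over all tested genes that ratio ran from 0.443 at the 5th percentile to 1.78 at the 95th. The rise was 2.099-fold, with a log2 change of 1.07 ± 0.31 (SE) and an edgeR adjusted p of 0.022. It was 0.57 when hypoxia replicate 3 was left out (edgeR adjusted p = 1e-04). Leaving out normoxia replicate 2 ended the call (edgeR adjusted p = 0.0597), as did library totals alone, at 0.76 (0.076), and no filter on low counts (0.165).

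E2F8 (ENSG00000129173, chromosome 11, 19224063 to 19241620, minus strand) encodes the partner of E2F7 in this repression. It had 14.3, 12.1 and 22.5 CPM in hypoxia and 23.5, 20.3 and 18.9 CPM in normoxia. Hypoxia replicates 1 and 2 lay below the normoxia range and replicate 3 lay within it. The log2 change was -0.34 ± 0.21 (SE; edgeR adjusted p = 0.187). E2F8 passed the test without hypoxia replicate 3, at -0.69 (edgeR adjusted p = 0.0011), under library totals, at -0.65 (0.0202), and with no filter, at -0.45 (0.0251). It shares 7 exon bases with CSRP3-AS1 on the other strand, which had at most 2 counts in any library.

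E2F7 was higher relative to E2F8 in every hypoxia library than in any normoxia library. The log2 ratio of E2F7 to E2F8 was 1.71, 1.97 and 2.17 in hypoxia, against 0.45, 0.67 and 0.63 in normoxia. This ratio did not set hypoxia replicate 3 far apart, and the difference stayed between 1.26 and 1.49 whichever library was left out (exact permutation p = 0.1, the smallest possible).

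**Figure D2:**
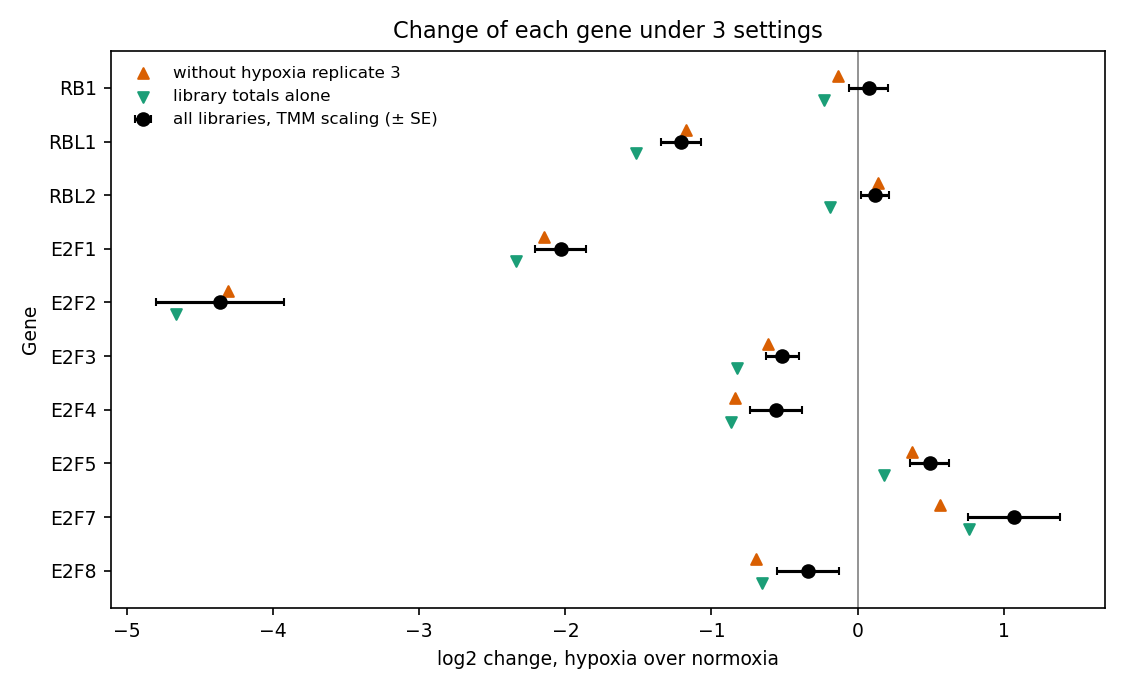
The log2 change of each gene, hypoxia over normoxia, with all libraries and TMM scaling (black, ± SE), without hypoxia replicate 3 (orange) and with library totals alone (green). E2F1, E2F2 and RBL1 stay well below 0 in all 3 settings, RB1 lies on both sides of 0, and E2F7 stands at 1.07 with all libraries and at 0.57 without hypoxia replicate 3.

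Levels of different genes were set side by side as CPM per kilobase of exon. In hypoxia the order ran from RB1 (22.8 ± 4.71) through E2F7 (15.8 ± 7.57), RBL2 (9.94 ± 0.769), E2F4 (6.19 ± 1.64), E2F5 (6.18 ± 0.631), E2F3 (5.57 ± 0.499), E2F8 (3.94 ± 1.32), RBL1 (2.04 ± 0.213) and E2F1 (1.31 ± 0.132) to E2F2 (0.0362 ± 0.0186). In normoxia it ran from RB1 (21.6 ± 1.33) through E2F4 (9.21 ± 0.879), RBL2 (9.15 ± 0.236), E2F3 (7.98 ± 0.226), E2F7 (7.55 ± 0.432), E2F1 (5.41 ± 0.0930), E2F8 (5.05 ± 0.575), RBL1 (4.70 ± 0.297) and E2F5 (4.402 ± 0.527) to E2F2 (0.761 ± 0.185), each as CPM per kilobase, mean ± SD (n = 3). Neighbours whose ranges overlapped were RB1 and E2F7 in hypoxia and the run from E2F4 to E2F8 there. In normoxia they were E2F4 and RBL2, E2F3 and E2F7, and the run from E2F1 to E2F5. E2F1 thus ranked 9 in hypoxia and 6 in normoxia, and E2F7 ranked 2 in hypoxia and 5 in normoxia.

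The summed level of the 7 E2F genes was 39.0 ± 11.7 CPM per kilobase in hypoxia and 40.4 ± 1.22 in normoxia (SD, n = 3 each), and the hypoxia libraries lay on both sides of the normoxia range. Its parts were spread differently. The activators E2F1, E2F2 and E2F3 together made up 19.8%, 21.0% and 14.4% in hypoxia, against 33.5%, 35.3% and 36.5% in normoxia. The atypical repressors E2F7 and E2F8 together made up 46.5%, 44.0% and 57.1% in hypoxia, against 32.3%, 31.9% and 29.4% in normoxia. Neither pair of ranges overlapped (exact permutation p = 0.1 for each, the smallest possible, and 0.116 after adjustment). E2F4 and E2F5 together kept overlapping shares, 32.4% ± 3.43 in hypoxia and 33.7% ± 0.796 in normoxia (exact permutation p = 0.8). The log2 ratio of the repressor pair to the 3 activators was 1.23, 1.07 and 1.98 in hypoxia and -0.06, -0.14 and -0.31 in normoxia. Of the 22 ratios and shares computed, 19 had groups that did not overlap, where 67.9% of all tested genes had separate ranges taken singly. The 22 reuse the same 10 genes, so the 19 are not separate results. Those with E2F2 rest on hypoxia counts of at most 3. Ratios of other genes were not computed as a background.

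**Figure D3:**
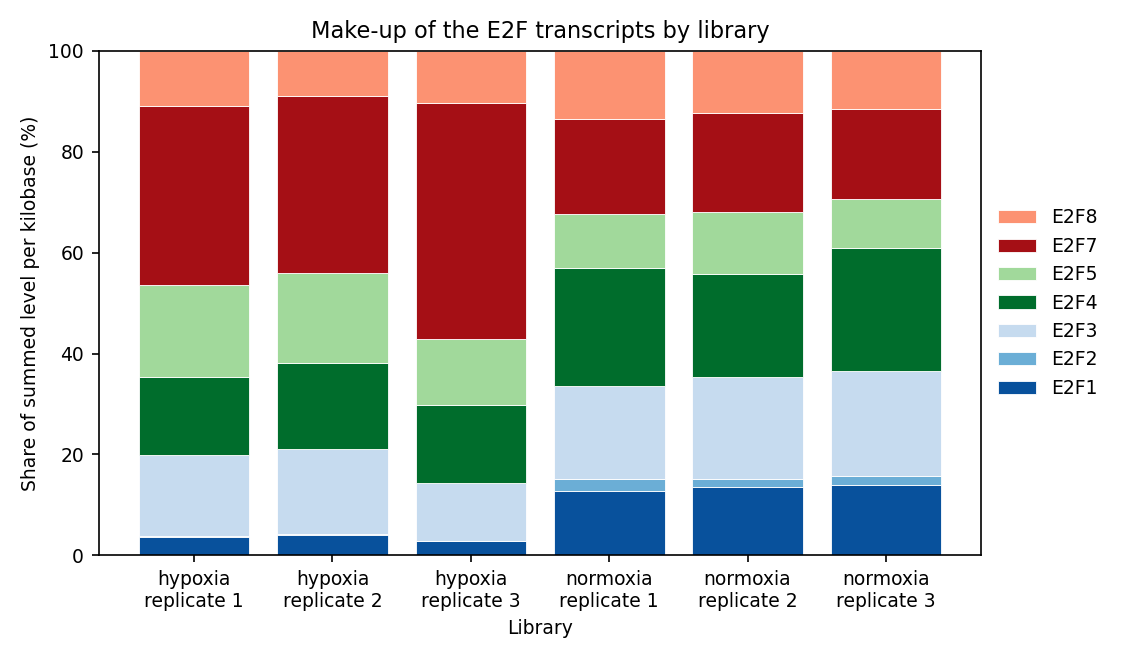
Share of each E2F gene, in percent of the summed CPM per kilobase of the 7 genes, in each library. E2F7 takes 35.1% to 46.7% in the hypoxia libraries and 17.9% to 19.6% in the normoxia libraries, while E2F1 takes 2.75% to 3.99% in hypoxia and 12.7% to 13.9% in normoxia.

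The DP partners fell with the activators. TFDP1, which pairs with E2F1 to E2F5 to bind DNA, had 44.0, 51.2 and 84.6 CPM in hypoxia, against 156, 149 and 156 CPM in normoxia, a log2 change of -1.35. TFDP2, the second DP gene, had 32.2, 32.3 and 34.6 CPM in hypoxia, against 99.1, 99.5 and 89.7 CPM in normoxia (log2 change -1.54). E2F6, a repressor that does not bind pocket proteins, changed by -1.04. All 3 fell, at edgeR adjusted p from 4.67e-07 to 0.00122, against 31.0% of all tested genes.

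The MuvB core and its partners, which join RBL2 and E2F4 in the DREAM complex or MYBL2 and FOXM1 later in the cycle, moved in both directions. Of 8 genes, 5 fell and 2 rose, against 31.0% and 31.2% of all tested genes. The median change was -0.78 on the log2 scale, where the median of all tested genes was 0.01. LIN52, LIN9 and RBBP4 fell, at log2 changes of -1.34, -0.79 and -0.77, as did MYBL1 and MYBL2, at -1.39 and -1.503. LIN37 rose, at 9.28, 9.89 and 8.31 CPM in hypoxia against 2.04, 2.94 and 2.92 CPM in normoxia, and LIN54, the DNA-binding subunit, rose by 1.09 on the log2 scale. FOXM1 had a log2 change of -0.17 (edgeR adjusted p = 0.38), and was called without hypoxia replicate 3, at -0.43 (adjusted p = 0.00115), and with library totals alone, at -0.47 (adjusted p = 0.0246).

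Of 9 cyclins and kinases that phosphorylate pocket proteins, 6 fell and 1 rose, against 31.0% and 31.2% of all tested genes, and the 7 calls compare with 62.2% of all genes called. CDK2, the kinase of cyclins E and A, had 20.1, 24.5 and 26.9 CPM in hypoxia, against 55.9, 57.4 and 60.01 CPM in normoxia (log2 change -1.27 ± 0.12, SE). CCNE2 changed by -1.58, CCND3 by -1.10, CCNA2 by -0.66, CDK4 by -0.57 and CCND1 by -0.38 on the log2 scale. CCND2 rose by 0.58, and library totals alone ended that call (edgeR adjusted p = 0.0934). CDK6 had a log2 change of -0.02, and was called only with library totals alone, at -0.33 (edgeR adjusted p = 0.0367). CCNE1 had one of -0.30, which became -0.88 without hypoxia replicate 3 (edgeR adjusted p = 0.0185).

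The CDK inhibitors that were tested, 5 of the 7 listed, rose, against 31.2% of all tested genes. CDKN1B (p27) had 149, 145 and 195 CPM in hypoxia, against 43.3, 39.3 and 48.0 CPM in normoxia (log2 change 1.91 ± 0.13, SE), and CDKN1A (p21), CDKN1C (p57) and CDKN2D (p19) rose by 1.47, 2.47 and 1.498. CDKN2C (p18) rose by 0.32, a call lost with upper-quartile scaling, library totals alone, no filter, a replicate block and in 5 of the 6 fits that left out a library. CDKN2A and CDKN2B, which encode the p16 and p15 inhibitors of CDK4 and CDK6, had 0 counts in all 6 libraries, which allows up to 0.316 CPM in hypoxia and 0.184 CPM in normoxia.

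Of 13 corepressors and chromatin partners of RB1, 8 fell and 2 rose, against 31.0% and 31.2% of all tested genes, and their median was -0.44 on the log2 scale. The DNA methyltransferase DNMT1, the histone methyltransferases SUV39H1 and SUV39H2 and the histone-binding RBBP7 fell, at -1.77, -1.17, -0.95 and -0.90. The scaffolds SIN3B and SIN3A rose, at 0.88 and 0.54, and library totals alone ended the SIN3A call (edgeR adjusted p = 0.0912). Of 6 genes of RB and E2F protein turnover, SKP2, an F-box protein that marks p27 for degradation, fell to 16.7, 18.7 and 17.4 CPM in hypoxia, against 78.1, 76.7 and 69.6 CPM in normoxia. FZR1, an activator of the anaphase-promoting complex that keeps cells in G1, rose by 1.34, and MDM2 by 0.74. CCNF, CDC20 and USP7 were not called, at log2 changes of -0.21, 0.15 and 0.19, but without hypoxia replicate 3 CCNF was called at -0.63 (edgeR adjusted p = 0.00234) and USP7 at 0.25 (0.0132). CDC20 and USP7 turned negative with library totals alone, at -0.16 and -0.12, with no call.

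Of 40 E2F target genes of the G1/S transition, 34 fell and 3 rose, against 31.0% and 31.2% of all tested genes. Falls of at least 2-fold numbered 30 of the 40, against 17.7% of all tested genes. The median log2 change of the 40 was -1.65. CDC25A, the phosphatase that activates CDK2, had 0.422, 1.12 and 1.14 CPM in hypoxia, against 9.01, 8.64 and 9.52 CPM in normoxia, a log2 change of -3.27 ± 0.30 (SE) at an edgeR adjusted p of 5.06e-06. With 4, 11 and 19 raw counts in hypoxia, CDC25A passed the filter on low counts through normoxia alone. POLA2 and CDC45, also counted as falls, did so too, and all of these falls lean on that filter. The replication checkpoint adaptor CLSPN changed by -3.73, the helicase subunit MCM3 by -3.17 and the flap endonuclease FEN1 by -3.10. ORC1 and CDT1, which license replication origins, rose by 0.75 and 0.44, and the checkpoint kinase CHEK1 rose by 0.31. With library totals alone these 3 calls were lost, and with no filter on low counts those of CDT1 and CHEK1. The CHEK1 call was also lost with upper-quartile scaling and in 5 of the 6 fits that left out a library. CCNE1, EZH2 and SLBP did not pass, and EZH2 fell with library totals alone, at -0.43 (edgeR adjusted p = 0.00516). CHEK1, EZH2, SLBP, POLA2 and CDC45 were named after their values were seen. Of the 34 list genes with a promoter window, 13 held the E2F letters given above (38.2%, against 3.4% of all genes with a window), with CDC25A and MCM3, which fell, and CDT1, which rose, among them.

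Targets read later in the cycle fell too, with a median nearer 0. Of 26 DREAM targets of G2 and M phase, 18 fell, against 31.0% of all tested genes, and the median was -0.57 on the log2 scale. At least 2-fold falls numbered 2 of 26, a smaller share than the 17.7% of all tested genes. HMMR, CDK1, CDC25C and CENPF fell, at -1.74, -1.34, -0.93 and -0.92. The number of falls was between 16 and 21 when each library was left out in turn, with the highest without hypoxia replicate 3. The difference between the G1/S and the G2/M lists was not tested.

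Of 8 pro-apoptotic E2F targets, 4 rose and 3 fell, against 31.2% and 31.0% of all tested genes, and the median was -0.01 on the log2 scale. APAF1, the scaffold of the apoptosome, had 79.4, 99.6 and 66.0 CPM in hypoxia, against 30.9, 29.8 and 31.8 CPM in normoxia (log2 change 1.40 ± 0.14, SE). TP73, a p53 relative, had 19, 17 and 24 raw counts in hypoxia and 6, 3 and 0 in normoxia. TP73 passed the filter on low counts through hypoxia alone, so its rise, 1 of the 4, was fixed by that filter. BBC3 rose by 1.73. CASP8 and PMAIP1 fell, at -1.51 and -1.09, and BCL2L11 had a log2 change of -0.45, and was called without hypoxia replicate 3, at -1.05 (edgeR adjusted p = 0.000304), and with no filter, at -0.55 (0.0329). The lists share some genes: CCNE1, CCNE2, CCNA2, MYBL2, DNMT1 and CDC20 each stand in more than 1 of them.

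**Figure D4:**
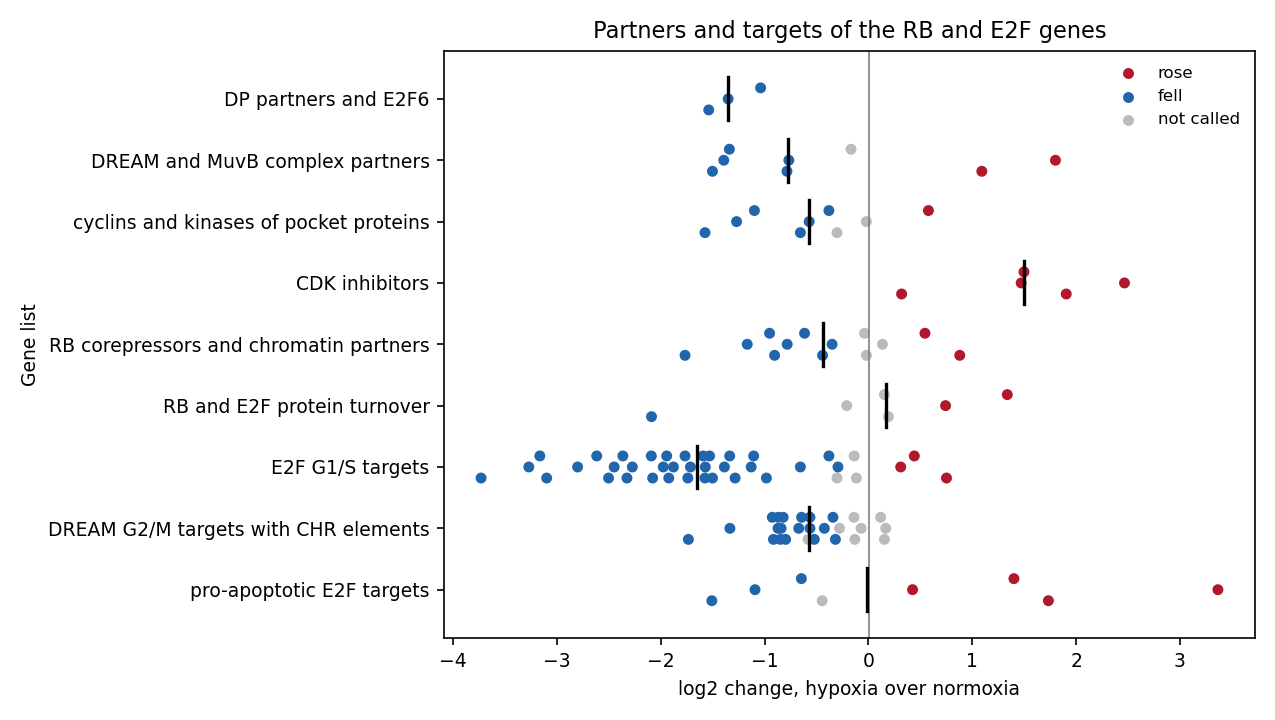
The log2 change, hypoxia over normoxia, of each tested gene in 9 lists of partners and targets, red for genes that rose, blue for genes that fell and grey for genes not called. Black bars mark each list's median and the grey line the median of all tested genes; the 40 G1/S targets have a median of -1.65 and the 5 CDK inhibitors a median of 1.498.

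The genes with the pattern most like that of the largest riser and faller were looked up among 8337 genes, by Euclidean distance between log2 CPM values, each centred on its own mean, over the 6 libraries. Nearest to E2F7 were TCP11L2, KAT6B and TENT5A, at distances of 0.292, 0.301 and 0.302. KAT6B, a histone acetyltransferase, had 94.7, 105 and 175 CPM in hypoxia and 62.2, 69.2 and 62.9 CPM in normoxia. All 3 were, like E2F7, highest in hypoxia replicate 3. Nearest to E2F2 were CLSPN, ESCO2 and RNASEH1, at 0.683, 0.812 and 0.946, distances that rest in part on hypoxia values of E2F2 at or under 3 counts and on the prior count of 2. ESCO2, a cohesin acetyltransferase of S phase, had 2.32, 3.47 and 2.47 CPM in hypoxia and 28.0, 32.7 and 27.3 CPM in normoxia. These distances describe 6 libraries that differ mainly by oxygen.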

How the data were processed

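RNA was sequenced from 3 hypoxia and 3 normoxia libraries, with groups and replicate numbers from the sample titles. The deposited table gives, for each Ensembl gene, the raw count of reads. Per the submitters' processing notes, the tools were featureCounts 2.0.1 and HISAT2 2.1.0, with fastp 0.20.1 and DESeq2 1.37.5, on GRCh38.p13. For annotation release and strand the setting is not given in the sources used here. Of 61860 lines, 1 names no gene (0.00243% of counts) and was left out. A second, normalized table was not used here because its cells run together.

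Genes were kept by filterByExpr (minimum count 10, minimum total 15), scaled by TMM and tested with the robust quasi-likelihood F test of edgeR 4.0.16 in R 4.3.3, adjusted over all 16411 genes, at a threshold of 0.05. The SE is the log2 change divided by the square root of F. log2 CPM used a prior count of 2. Symbols, GRCh38 coordinates and merged exon lengths are from GENCODE release 29 and a gene name table. Ratios and shares were tested by exact permutation over libraries. Alternatives were DESeq2 1.42.0, limma-voom (limma 3.58.1), other scalings and filters, leaving out the 10 most abundant genes, a replicate block and leaving out each library. The scripts were tested on simulated data.

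The members and lists were chosen with earlier results of these data known. From each list of 10 or more genes, up to 4 called genes with the largest change in the list's main direction and 2 in the other were named, and from shorter lists any member. Values of 2 of the listed genes are not reported here. The labels do not say whether replicates came from separate cultures beyond calling them biological, so p-values measure the spread between these libraries. No 2 replicates were alike within sampling noise (chi-square between them, per gene, 5.88 to 38.1).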

Additional observations from a re-analysis of the deposited data

How the results depend on the processing

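The falls of RBL1, E2F1 and E2F3 held their call under every alternative run. E2F2 was called under each as well, which says nothing of stability in the filtered fits, where its normoxia counts alone let it in. With library totals alone, the log2 change was -0.23 for RB1, -0.19 for RBL2, 0.18 for E2F5, 0.76 for E2F7 and -0.65 for E2F8, so that 0 members rose. List rises then numbered 0 for cyclins and kinases, 1 for corepressors and 0 for G1/S targets. At an unadjusted p under 0.05 in edgeR the rises numbered 0 for members, 0 for cyclins and kinases and 1 for G1/S targets. DESeq2 with its own scaling, and limma-voom with the same TMM scaling as the main fit, each gave 2 member rises. With no filter on low counts, RB1 was at -0.0401, RBL2 at -0.0069, E2F7 at 0.96 and E2F8 at -0.45, 1 member rose, and 1 G1/S target rose. The cause was not tested. Leaving out each library gave log2 changes of -0.13 to 0.18 for RB1, -0.84 to -0.44 for E2F4, 0.57 to 1.25 for E2F7 and -0.69 to -0.18 for E2F8. It gave 1 to 2 member rises, 4 to 6 member falls, 1 to 2 falls in the turnover list, a difference in the RB1 to RBL2 log2 ratio of -0.27 to 0.0491, and one in the share of E2F4 with E2F5 of -2.61 to 0.62 percentage points. The numbers of genes changed over the whole table were 10208 with the settings reported and between 9065 and 11339 otherwise.

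Same-numbered libraries did not deviate together (correlations of -0.11, 0.09 and -0.04), so the replicate numbers were not taken as pairs. A replicate block gave 9768 changed genes, 2 member rises and 5 member falls, with E2F7 at 0.97 (edgeR adjusted p = 0.0354). Of the calls named in the text it changed the one for CDKN2C (adjusted p = 0.0521). DESeq2 and limma-voom gave 10001 and 10345 changed genes and the same calls for all 10 members. Depth limits E2F2, whose hypoxia libraries hold at most 3 counts each.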
